A study of Mus musculus with 23 samples.

Results

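Hemoglobin genes were read here as a measure of the blood carried in mouse testicular tissue, together with Alas2, the erythroid form of the first enzyme of heme synthesis. The members were named by gene: Hba-a1 and Hba-a2 for alpha globin, Hbb-b1, Hbb-bs and Hbb-bt for beta globin, and Alas2. Of these 6 genes, 5 had a row among the 27466 genes of the count table, since Hbb-bs had none and was not analysed here. Hba-a2 held at most 2 counts in any library and did not pass the filter on low counts, so 4 members were tested.

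Bulk polyA RNA was sequenced from the testes of CD-1 mice, an outbred stock, with no transgene or deletion in any group. In vivo tissue was collected at 6.5 days postpartum (dpp) and at 3 later ages, namely 10.5, then 22.5, and last 36.5 dpp. In vitro tissue was 6.5 dpp testis cultured with serum replacement and retinol for 4, 16 or 30 days (D4, D16, D30), so that it reached the ages of those later testes in turn. Tissue at 6.5 dpp and at D30 was either fresh (FT) or had been put through controlled slow freezing (CSF). The in vitro groups came from pooled explants whose necrotic centre was cut away before RNA extraction, and no such step applied to the in vivo testes. The 21 libraries used were 12 in vivo and 9 in vitro. The 6.5 dpp stage had 4 of them, 1 FT and 3 CSF, followed by 3 for 10.5 dpp, 3 for 22.5 dpp and 2 for 36.5 dpp. In culture D4 had 3, D16 had 2 and D30 had 4, of which 3 were FT and 1 was CSF. Nothing in the labels tied libraries to animals, so p-values cover only the spread between these libraries.

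Library totals ran from 28351546 to 69029328 counts, and 3 counts corresponded to 0.0435 to 0.106 CPM, counts scaled to a fixed library total. The library labelled 6.5 dpp FT replicate 3 held the same count as replicate 2 for all 27466 genes and was counted with it as 1 sample. The library labelled 6.5 dpp FT replicate 1 was left out of every comparison, having been set aside as culture-like when the members were chosen. It held 2 globin counts in all, where the other 4 libraries of that age held 3256 to 16461. Calls of later ages and of D4 against 6.5 dpp were therefore also checked with it included. The freezing comparison and the pooled ratios are given only without it. Germ cell, supporting cell and interstitial markers of testis were present throughout, and the germ cell gene Ddx4 averaged 185 to 852 CPM over the 7 stages.

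Red blood cells carry oxygen on hemoglobin, a tetramer of alpha and beta globin chains that each hold a heme group. Circulating mammalian red cells have lost their nucleus, but young ones (reticulocytes) still contain globin mRNA, so blood left in a piece of tissue brings globin transcripts into its RNA. Globin genes are switched on in erythroid precursors by GATA1, KLF1 and their partners, while Alas2 commits glycine to heme synthesis in the same cells. Explants in culture have no circulation.

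The sequences upstream of the members are shown because these are the stretches through which the erythroid programme is known to act. Each is the 250 bases before the RefSeq start of the gene on its own strand, 5′ to 3′, from GRCm38.p6. Capitals mark matches on either strand to GATA words (GATAA or GATAG with A or T before it), to CACCC, to CCAAT and to TATAA; adjoining or overlapping matches run together.
Hba-a1, chr11:32283422-32283671, plus strand: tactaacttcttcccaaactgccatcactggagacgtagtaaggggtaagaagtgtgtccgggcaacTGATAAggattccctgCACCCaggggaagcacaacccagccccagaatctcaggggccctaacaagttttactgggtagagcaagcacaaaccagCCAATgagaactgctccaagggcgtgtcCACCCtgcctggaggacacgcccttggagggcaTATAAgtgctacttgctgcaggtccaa
Hbb-bt, chr7:103813924-103814173, minus strand: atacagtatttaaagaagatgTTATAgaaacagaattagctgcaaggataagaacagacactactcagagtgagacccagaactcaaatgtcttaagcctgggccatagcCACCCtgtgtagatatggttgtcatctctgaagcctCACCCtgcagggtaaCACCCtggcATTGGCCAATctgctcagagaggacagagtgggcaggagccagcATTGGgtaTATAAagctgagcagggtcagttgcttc
Alas2, chrX:150547167-150547416, plus strand: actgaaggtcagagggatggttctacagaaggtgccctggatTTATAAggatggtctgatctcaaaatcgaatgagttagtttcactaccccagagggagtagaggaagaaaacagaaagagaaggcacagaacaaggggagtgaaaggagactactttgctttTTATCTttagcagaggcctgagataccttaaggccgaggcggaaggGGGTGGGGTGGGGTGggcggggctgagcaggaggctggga

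The Hba-a1 window held 1 GATA word, 2 CACCC, 1 CCAAT and 1 TATAA, the last lying 22 to 27 bases before the start. The Hbb-bt window held 3 CACCC, 3 CCAAT and 2 TATAA matches and none of the GATA words. In the Alas2 window there were 1 GATA word, 3 CACCC and 2 TATAA matches, the latter over 200 bases before the start, and no CCAAT. Among 32851 promoter windows of the same length, 26.5% held a GATA word, 52.0% CACCC, 33.8% CCAAT, 22.8% TATAA, and 1.08% all of them, as Hba-a1 did. A match is a description of the letters and not a bound site. The RefSeq table placed Hbb-b1 on a sequence other than the main chromosome 7, so neither its position nor its promoter is given.

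The alpha globin genes lie close together on chromosome 11, with Hba-a1 at 32283672 to 32284486 and Hba-a2 at 32296492 to 32297310, both on the plus strand. Their coding sequences, 429 bases each, differ by the single substitution C381T, written as the Hba-a1 base, its position from the first coding base, and the Hba-a2 base. The 50 coding bases around it, as long as 1 read, are given with the differing base in capitals because within the coding sequence only a read over that base can tell these genes apart.
Hba-a1, coding bases 356 to 405: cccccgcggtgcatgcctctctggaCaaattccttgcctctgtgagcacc
Hba-a2, coding bases 356 to 405: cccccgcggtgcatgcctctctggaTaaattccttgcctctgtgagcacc

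Of the 50-base windows of the reference transcripts, 211 of 650 (32.5%) were found in no other gene for Hba-a1 and 66 of 505 (13.1%) for Hba-a2. For the beta globins Hbb-bs and Hbb-bt, which differ by C417T over 444 coding bases, the unique windows were 198 of 579 (34.2%) and 273 of 654 (41.7%). Hbb-b1 was not examined in this way. Most of each globin transcript that was examined is thus shared with a near-identical copy. How these reads were divided among the copies depends on the aligner and counter, so the levels of single globin rows are uncertain, and comparisons of a row between libraries are firmer than comparisons between rows. Over the 21 libraries Hba-a2 summed to 6 counts, all of them in vivo and at or below 2 in each library, while Hba-a1 exceeded 800 counts in every library used at 6.5 dpp.

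Alas2 lies on chromosome X at 150547417 to 150570622 on the plus strand, and 86.2% of its 1988 windows were unique. Its locus overlaps Apex2, a DNA repair endonuclease gene on the minus strand, and the microRNA gene Mir3620. The libraries were stranded, but the strand setting of the counting is not given in the sources used here, so reads from Alas2 and Apex2 over the overlap may not be separated.

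In the testis in vivo, globin counts were highest at 6.5 and 10.5 dpp and lowest at 36.5 dpp, whereas Alas2 was at its in vivo highest at 36.5 dpp. Levels are in CPM of each library's total and are compared between stages and not between genes, since they are not scaled by length. In a bulk sample fewer cells of a type and less RNA per cell cannot be told apart.

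Hba-a1, an alpha globin gene, stood at 30.1 CPM in the 6.5 dpp FT library and at 19.5, 20.1 and 64.4 CPM in the CSF libraries of that age. At 10.5 dpp its levels were 33.7, 39.9 and 36.2 CPM, and at 22.5 dpp 8.13, 10.3 and 18.8 CPM. The 36.5 dpp libraries held 2.85 and 1.80 CPM. Every 22.5 dpp library thus lay below every 6.5 and 10.5 dpp library, and both 36.5 dpp libraries lay below those.

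Hbb-b1 was the beta globin row with the most counts. It stood at 96.5 CPM in the 6.5 dpp FT library and at 36.8, 134 and 451 CPM in the CSF libraries. Levels were 106, 109 and 126 CPM at 10.5 dpp, 33.0, 24.2 and 39.5 CPM at 22.5 dpp, and 41.3 and 3.93 CPM at 36.5 dpp. The spread within 6.5 dpp was wide, and the 36.5 dpp libraries lay on either side of all those of 22.5 dpp.

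Hbb-bt, the other beta globin row, was at 12.8 CPM in the 6.5 dpp FT library and at 11.4, 12.8 and 64.8 CPM in the CSF libraries. It reached 21.0, 25.8 and 21.1 CPM at 10.5 dpp, 5.23, 6.60 and 7.11 CPM at 22.5 dpp, and 2.29 and 0.257 CPM at 36.5 dpp. As for Hba-a1, the 22.5 dpp libraries did not overlap the earlier ones. The replicate 3 of 6.5 dpp CSF was the highest of its stage for all 3 globin rows.

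Alas2 took the opposite course in vivo. It was at 8.10 CPM in the 6.5 dpp FT library and at 4.66, 6.71 and 9.35 CPM in the CSF libraries, then at 9.74, 12.3 and 8.18 CPM at 10.5 dpp. It measured 9.11, 11.7 and 11.4 CPM at 22.5 dpp and 25.4 and 21.6 CPM at 36.5 dpp, so that the 36.5 dpp libraries exceeded all others in vivo and the 3 earlier ages overlapped in part.

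**Figure D1:**
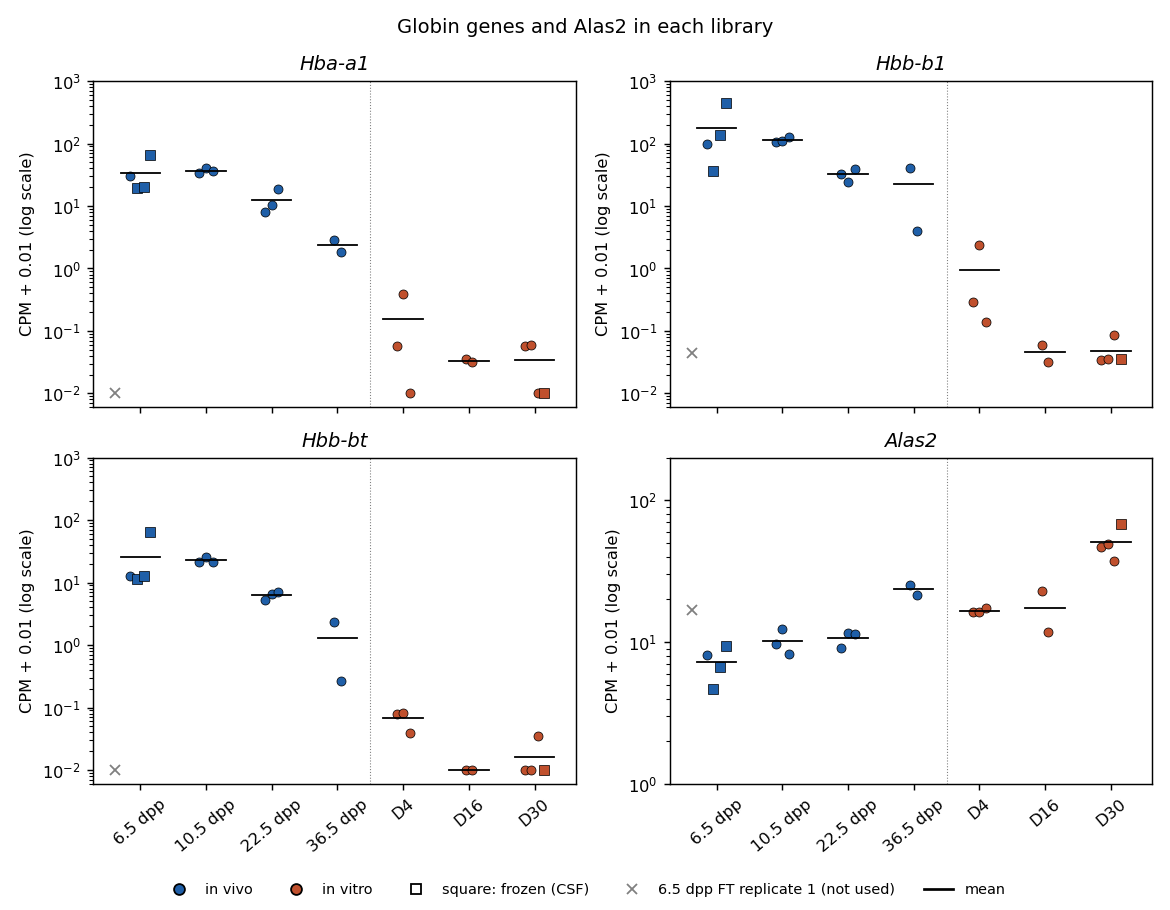
CPM of each library plus 0.01 on a log scale, for Hba-a1, Hbb-b1, Hbb-bt and Alas2 over the 4 in vivo ages (blue) and 3 culture days (orange); squares are CSF libraries, horizontal lines the mean, and grey crosses the library labelled 6.5 dpp FT replicate 1, which entered no comparison. The 3 globin rows step down between in vivo and in vitro tissue, where most points lie under 1 CPM, while Alas2 rises to between 37.3 and 68.3 CPM at D30.

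Fold changes below are fitted log2 values with their standard error (SE) from edgeR's quasi-likelihood test, and a gene is called at a Benjamini-Hochberg adjusted p under 0.05 over all 19255 genes tested. Between 6.5 and 10.5 dpp 0 of the 4 members were called, and 0 had an unadjusted p under 0.05 in edgeR; 1.14% of all genes were called. The DESeq2 count was also 0. Log2 changes were 0.02 (SE 0.56) for Hba-a1, -0.79 (SE 0.81) for Hbb-b1, -0.30 (SE 0.61) for Hbb-bt and 0.41 (SE 0.27) for Alas2.

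Between 10.5 and 22.5 dpp 0 of 4 members were called in edgeR against 61.5% of all genes, with 1 at an unadjusted p under 0.05 and 0 called by DESeq2. The globin rows had log2 changes of -1.26 (SE 0.61, adjusted p = 0.0804), -1.50 (SE 0.87, adjusted p = 0.140) and -1.55 (SE 0.66, adjusted p = 0.0517) for Hba-a1, Hbb-b1 and Hbb-bt in edgeR. These missed the threshold although the libraries of the compared ages did not overlap. Fitted on those 6 libraries alone, the 3 globin rows were called. The shares of all genes called in that fit, or without overlap between these ages, are not given here.

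From 22.5 to 36.5 dpp, 2 of 4 members were called, against 50.7% of all genes. Hba-a1 fell by 1.92 on the log2 scale (SE 0.74, edgeR adjusted p = 0.0378), and Alas2 rose by 1.64 (SE 0.32, edgeR adjusted p = 4.6e-04). The median change of all genes in this comparison was -0.13. Hbb-b1, at -0.04 (SE 0.96), and Hbb-bt, at -1.83 (SE 0.81, adjusted p = 0.0689), did not pass. Hbb-bt was called by edgeR with library size alone (-2.32, adjusted p = 0.0174), with fresh tissue alone (-1.83, adjusted p = 0.0198) and without 36.5 dpp replicate 1 (-4.08, adjusted p = 0.0111). The Hba-a1 call was lost without either 36.5 dpp library (adjusted p = 0.0953 and 0.184 in edgeR) and without 22.5 dpp replicate 3 (adjusted p = 0.127), while Alas2 kept its direction and call in each of these. Over all alternatives Hba-a1 lost the call in 8 of 14.

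Across the whole interval from 6.5 to 36.5 dpp all 4 tested members were called, where 77.7% of all genes were. Hba-a1 fell by 3.16 (SE 0.76, adjusted p = 0.00106), Hbb-bt by 3.67 (SE 0.86, adjusted p = 8.6e-04) and Hbb-b1 by 2.33 (SE 1.02, adjusted p = 0.0447) on the log2 scale of the edgeR fit. Alas2 rose by 2.43 (SE 0.30, edgeR adjusted p = 6.6e-07), to a fitted level 5.39 times that at 6.5 dpp. With the library labelled 6.5 dpp FT replicate 1 included, only Alas2 was called, where 71.8% of all genes were. The edgeR adjusted p of Hba-a1, Hbb-b1 and Hbb-bt became 0.0961, 0.257 and 0.0594 in that fit. Hbb-b1 lost its call also without 6.5 dpp CSF replicate 3 (log2 change -1.22, adjusted p = 0.194) and without 36.5 dpp replicate 2 (-1.44, adjusted p = 0.274), and in 9 of 15 alternatives in all. Without 36.5 dpp replicate 1 the log2 changes of Hbb-b1 and Hbb-bt were -4.80 and -5.90. Without 6.5 dpp CSF replicate 3 those of Hba-a1 and Hbb-bt were -2.55 and -2.52, and without 36.5 dpp replicate 2 that of Hbb-bt was -2.79.

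In cultured explants globin transcripts were nearly absent from D4 on. Hba-a1 held 2, 16 and 0 counts in the D4 libraries, 1 and 1 at D16, and 2, 2 and 0 in the D30 FT libraries with 0 in the CSF library. All 9 in vitro libraries lay below the lowest in vivo library, which had 70 counts of this gene.

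Hbb-b1 held 12, 99 and 9 counts at D4, 2 and 1 at D16, and 1, 1 and 3 in the D30 FT libraries with 1 in the CSF library. The lowest in vivo library held 153. In CPM the D4 libraries stood at 0.279, 2.37 and 0.130, and D4 replicate 2 accounted for most of the counts at that day. The 3.93 CPM of 36.5 dpp replicate 2 was the lowest in vivo level and was still above all of them.

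Hbb-bt held 3, 3 and 2 counts at D4, 0 and 0 at D16, and 0, 0 and 1 in the D30 FT libraries with 0 in the CSF library. These are at or under the 3 counts that mark the limit of a count of 0 in 1 library, so the presence of Hbb-bt was not established in any single culture library. Hba-a2 was at 0 in all 9.

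Against the 6.5 dpp tissue from which the explants were taken, all 4 members were called at D4, where 20.9% of all genes were; 3 were lower, as 10.1% of all genes were. Summed over the libraries of each stage, Hba-a1 was 260-fold lower (164 to 439, exact 95% interval for counting error only), Hbb-b1 191-fold (160 to 231) and Hbb-bt 409-fold (207 to 949). The fitted log2 changes were -8.02 (SE 0.86, adjusted p = 3.4e-06), -7.69 (SE 1.15, adjusted p = 1.1e-04) and -8.86 (SE 0.99, adjusted p = 7.6e-06) in edgeR. These sizes depended on single libraries, since D4 replicate 2 held 16 of the 18 Hba-a1 counts and 99 of the 120 Hbb-b1 counts of that day, and 6.5 dpp CSF replicate 3 was the highest of its stage. Leaving out 1 library, Hba-a1 ran from -10.63 (without D4 replicate 2) to -7.28 (without D4 replicate 3) and was at -7.42 without 6.5 dpp CSF replicate 3. Hbb-b1 ran from -9.87 to -6.58 and Hbb-bt from -9.12 to -7.71; the largest fall of Hbb-b1 came without D4 replicate 2 and the smallest of both without 6.5 dpp CSF replicate 3. All 3 stayed called in each of these. They were also called with the library labelled 6.5 dpp FT replicate 1 included, where 5.77% of all genes were.

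Alas2 rose by 1.22 (SE 0.27, edgeR adjusted p = 0.00350) over the same 4 days, to 16.2, 16.3 and 17.5 CPM, above all 4 libraries of 6.5 dpp. The globin rows and Alas2 thus moved in opposite directions. The Alas2 call was lost with the library labelled 6.5 dpp FT replicate 1 (log2 change 0.81, edgeR adjusted p = 0.144) and with fresh tissue alone (1.10, adjusted p = 0.108).

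Against in vivo testes of the same age, 3 of 4 members were called at D4, D16 and D30 alike, all of them globin rows and all lower. The shares of all genes called were 8.1% for D4 against 10.5 dpp, 25.8% for D16 against 22.5 dpp and 67.4% for D30 against 36.5 dpp, and the shares called lower were 3.18%, 11.8% and 35%. The last share leaves little to read from a count of members, whereas the first is small.

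At D4, Hba-a1 was 311-fold lower than at 10.5 dpp (197 to 525), Hbb-b1 147-fold (123 to 178) and Hbb-bt 429-fold (217 to 995), by the pooled counts and their exact 95% intervals. The edgeR log2 changes were -8.04 (SE 0.87, adjusted p = 8.4e-06), -6.89 (SE 1.12, adjusted p = 6.0e-04) and -8.57 (SE 1.00, adjusted p = 2.8e-05). Without D4 replicate 2 the log2 changes of Hba-a1 and Hbb-b1 were -10.65 and -9.07, and without D4 replicate 3 that of Hba-a1 was -7.30. Alas2 was at 0.81 (SE 0.29, adjusted p = 0.104) and did not pass, although its 3 D4 libraries lay above the 3 of 10.5 dpp; it passed in the fit of fresh tissue (adjusted p = 0.0487) and in that of these 2 groups alone (adjusted p = 0.00125).

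At D16, only 2 counts of Hba-a1 and 3 of Hbb-b1 remained over both libraries. These were 510-fold (141 to 4217) and 893-fold (305 to 4333) below 22.5 dpp by pooled counts, intervals that are wide because so few counts are left. Hbb-bt, at 0 counts, was at least 179-fold lower, taking 3 counts over the group as the limit. The edgeR adjusted p was 8.5e-05 for Hba-a1, 8.7e-04 for Hbb-b1 and 2.9e-04 for Hbb-bt. The Hbb-b1 log2 change, fitted at -9.90, was -10.53 without D16 replicate 1. Alas2 differed by 0.55 (SE 0.32, adjusted p = 0.210), with D16 libraries at 22.9 and 11.8 CPM that spread wider than those of 22.5 dpp.

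At D30, the pooled counts put Hba-a1 91.7-fold (35.2 to 341), Hbb-b1 569-fold (261 to 1552) and Hbb-bt 192-fold (33.6 to 7683) below 36.5 dpp. The edgeR adjusted p was 7.7e-06, 7.0e-06 and 4.4e-05. The size of these differences depended on single libraries, though each call was kept without any 1 of them. Fitted at -9.76 on the log2 scale, Hbb-b1 was at -7.28 without 36.5 dpp replicate 1 and -10.64 without replicate 2. Hbb-bt, fitted at -7.73, was at -5.50 and -8.61 without these libraries and at -9.37 without D30 FT replicate 3, which held its only D30 count. The Hba-a1 range was -7.55 to -6.62. Alas2 stood at 47.1, 49.0 and 37.3 CPM in the D30 FT libraries and at 68.3 CPM in the CSF library, above both 36.5 dpp libraries. Its log2 change after TMM scaling was 0.47 (SE 0.31, adjusted p = 0.192 in edgeR) and did not pass. The scaling decided this call, since library size alone gave 1.10 (edgeR adjusted p = 0.00394), a shift of 0.64 beside 0.63 for each globin row, and RLE factors gave 0.21 (adjusted p = 0.575).

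Whether the loss against age-matched testis differed between culture days was tested by the interaction terms of the fit. In edgeR 0 of 4 members passed for D16 against D4, where 9.61% of all genes did, and 0 of 4 for D30 against D4, where 46.4% did; 0 had an unadjusted p under 0.05 in either, and DESeq2 called 0 in both. The Hbb-bt terms were -2.63 (SE 2.82) and 0.83 (SE 6.59), and errors of this size leave room for large differences.

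Within culture, Hbb-b1 and Alas2 changed further. From D4 to D16 0 of 4 members were called in edgeR and 1 by DESeq2, with 1 at an unadjusted p under 0.05 in edgeR and 23.9% of all genes called. From D16 to D30 only Alas2 was called, where 1.79% of all genes were; it rose by 1.56 (SE 0.33, edgeR adjusted p = 0.0196) and lost the call without D16 replicate 2 (1.14, adjusted p = 0.325). From D4 to D30, 2 of 4 members were called against 45.6% of all genes. Hbb-b1 fell by 4.40 on the log2 scale (SE 1.39, edgeR adjusted p = 0.0149), a call lost without D4 replicate 2 (-2.22, adjusted p = 0.257), and Alas2 rose by 1.68 (SE 0.28, edgeR adjusted p = 1.1e-04). DESeq2 called 3, with Hba-a1 at -2.35 (adjusted p = 0.0497), and Hba-a1 was called also without D4 replicate 3 (-2.88, edgeR adjusted p = 0.0394).

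Under the thresholds the study used for its plots, an absolute log2 change of at least 2 and an adjusted p of at most 0.001, fewer members passed in 5 of these comparisons: 0 for 36.5 against 22.5 dpp (9.9% of all genes), 2 for 36.5 against 6.5 dpp (40.8%), 3 for D4 against 6.5 dpp (2.41%), 0 for D30 against D16 (0.00519%) and 0 for D30 against D4 (13.3%).

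**Figure D2:**
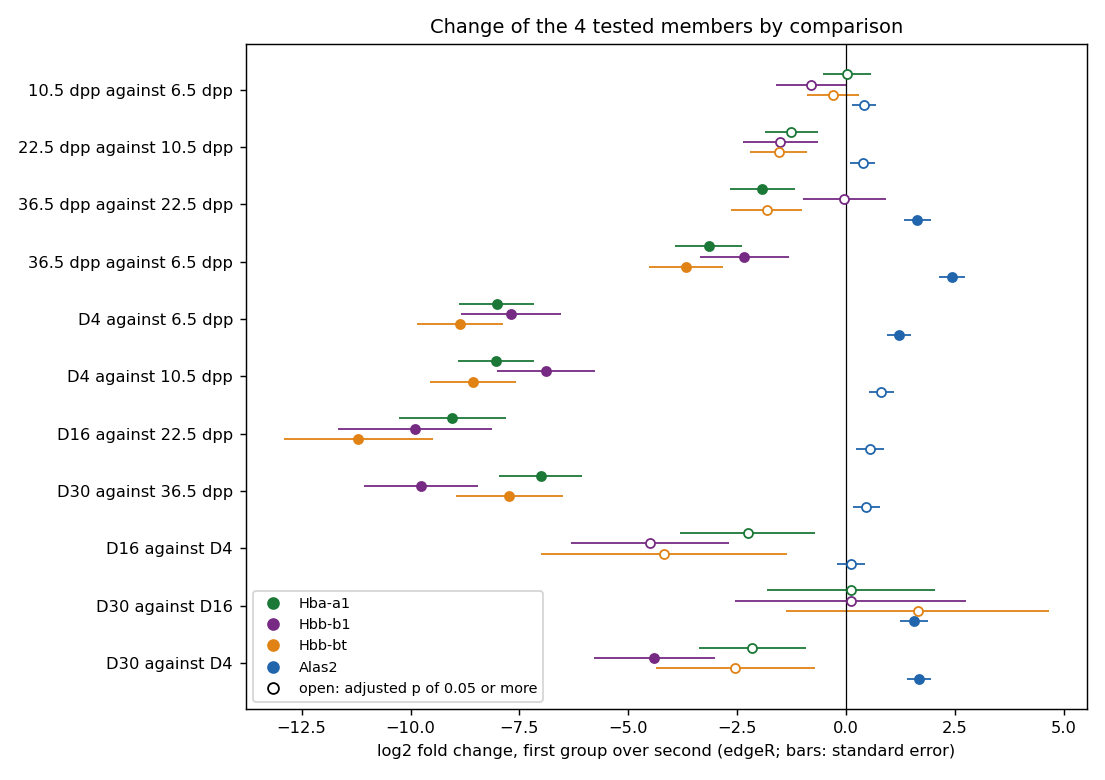
Fitted log2 fold change of the first group over the second, with its standard error, for Hba-a1, Hbb-b1, Hbb-bt and Alas2 in 11 comparisons; filled points have an edgeR adjusted p under 0.05. The 3 globin rows sit between -6.89 and -11.20 in the 4 comparisons of culture with in vivo tissue, and Alas2 lies above 0 in every comparison shown.

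Apex2, singled out after its overlap with Alas2 was seen, did not follow Alas2. Its 6.5 dpp mean of 19.6 CPM, with an SD of 0.990 over 4 libraries, compared with 1.68 CPM by 36.5 dpp, with an SD of 0.277 over 2, and it fell by 2.80 on the log2 scale (SE 0.24, edgeR adjusted p = 7.4e-09) where Alas2 rose. At D30 it averaged 9.99 ± 2.06 CPM (SD, n = 4) and was not higher than at D16 (log2 change -0.16, SE 0.20, adjusted p = 0.903).

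Freezing was compared on few libraries, since only 1 distinct FT library remained at 6.5 dpp and 1 CSF library was available at D30. In a fit of 9 groups over 19758 genes, edgeR called 0 of 4 members for CSF against FT at 6.5 dpp, with 0.0152% of all genes called, and 0 of 4 at D30, with 0% of all genes called. In each 0 members had an unadjusted p under 0.05, DESeq2 called 0, and 476 and 734 of all genes had such a p. At 6.5 dpp the log2 differences were 0.29 (SE 0.89) for Hba-a1, 1.22 (SE 1.34) for Hbb-b1, 1.33 (SE 0.99) for Hbb-bt and -0.17 (SE 0.40) for Alas2. These errors do not show that fresh and frozen tissue carried the same amount of blood.

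The proportions of the globin rows varied between in vivo libraries. Over the 12 libraries there were 1.88 to 14.5 Hbb-b1 counts per Hba-a1 count, with a median of 3.17, and 3.24 to 18.1 per Hbb-bt count, with a median of 6.14. The highest ratio to Hba-a1 was in 36.5 dpp replicate 1 and replicate 2 of that age had 2.19, so this ratio varied within an age. The ratio to Hbb-bt was highest in the 36.5 dpp libraries, at 18.1 and 15.3, followed by 10.5 in 6.5 dpp CSF replicate 2. In 36.5 dpp replicate 2 it rests on 10 Hbb-bt counts. Hbb-b1 made up 54.4% to 88.9% of the globin counts. Reads of Hba-a1 and Hbb-bt may be shared with their near-identical copies Hba-a2 and Hbb-bs, and Hbb-b1 was not examined for copies. These ratios therefore describe rows and not protein chains.

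**Figure D3:**
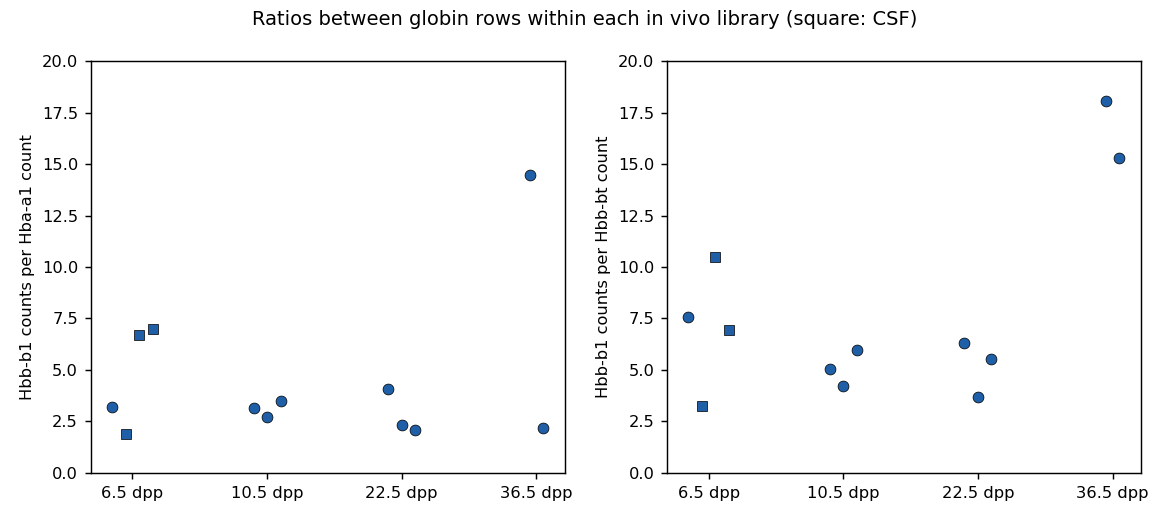
Hbb-b1 counts per Hba-a1 count (left) and per Hbb-bt count (right) in each in vivo library by age, on linear axes; squares are CSF libraries and each point is 1 library. Both ratios reach their highest in a 36.5 dpp library, at 14.5 and 18.1.

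The globin counts per Alas2 count also moved with stage. In vivo they ran from 0.277 in 36.5 dpp replicate 2 to 62.1 in 6.5 dpp CSF replicate 3, with a median of 14.3, and in culture from 3.7e-04 to 0.174. Over the 21 libraries the log2 levels of the summed globins and of Alas2 had a Pearson r of -0.759, a description over libraries that share stage and preparation. Alas2 was therefore not a second reading of the amount of globin RNA in these tissues.

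The other genes of heme synthesis gave calls in both directions, in vivo and in culture. All 10 listed genes were tested. In vivo 2 were higher and 5 lower at 22.5 than at 10.5 dpp, with a median log2 change of -0.76 beside 0.06 over all genes. At 36.5 against 6.5 dpp 3 were higher and 5 lower, with a median of -0.84 beside -0.0084. Of all genes, 61.5% were called in the former and 77.7% in the latter, which leaves little to read from these counts. In culture against age-matched testis the shares were 8.1% at D4, 25.8% at D16 and 67.4% at D30. Their summed level ran from 800 to 868 CPM at 10.5 dpp and from 305 to 337 CPM at 36.5 dpp. At D4 against 10.5 dpp 0 were higher and 1 lower, with a median log2 change of -0.08 beside -0.01 over all genes. The gene that fell was Alad, which joins the first heme precursors (-0.90, SE 0.25, edgeR adjusted p = 0.0302). At D16 against 22.5 dpp 3 were higher, Alad and Cpox among them, and 1, Alas1, was lower. At D30 against 36.5 dpp 4 were higher, among them Alad, Cpox and Ppox, and 1 was lower, the mitochondrial iron carrier Slc25a37. Cpox, Ppox and Slc25a37 are named because they were called. Alas1, the form of the first enzyme found in all tissues, averaged 84.0 CPM at 6.5 dpp and 260 CPM at 22.5 dpp, and Fech, the last enzyme of the chain, averaged 42.3 to 96.1 CPM over the stages.

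Embryonic and minor globins were at the limit of detection. All 6 had a row, none was tested in the time course, and their summed level ran from 0 to 0.494 CPM over all libraries; Hbb-bh2 was at 0 counts in every one. Of the globins of other tissues, cytoglobin (Cygb), found in fibroblast-like cells, moved the other way from the hemoglobins in culture set against age-matched testis: it was higher at D4 than at 10.5 dpp by 0.81 (SE 0.18, edgeR adjusted p = 0.0084) and higher at D30 than at 36.5 dpp by 2.42 (SE 0.22, edgeR adjusted p = 1.6e-07). In vivo Cygb fell as the hemoglobins did, averaging 64.6, 51.3, 13.4 and 6.06 CPM at the 4 ages in turn, with a log2 change of -2.67 (SE 0.22, edgeR adjusted p = 6.9e-09) from 6.5 to 36.5 dpp. Neuroglobin (Ngb) averaged 0.796 to 4.33 CPM and myoglobin (Mb) under 0.3 CPM at every stage.

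Membrane and skeleton proteins of the red cell gave a mixed picture. Of 12 listed genes 10 were tested, Icam4 being at 0 counts throughout. At D4 against 10.5 dpp 0 were higher and 2 lower, where 8.1% of all genes were called. Slc4a1, which encodes the anion exchanger band 3 and was singled out after its values were seen, averaged 0.669 CPM at 10.5 dpp and 0.0177 CPM at D4 (log2 change -4.84, SE 0.96, edgeR adjusted p = 0.0033). It is far scarcer than the globin rows, and it was back at 0.276 CPM at D30, higher than at D4 by 3.72 (SE 0.98, edgeR adjusted p = 0.0049).

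The more abundant genes of that list are not confined to red cells. Epb41 and Sptb, skeleton proteins used in many cells, averaged 107 and 113 CPM at D4 beside 116 and 104 CPM at 10.5 dpp. Rhd, of the Rhesus complex, averaged 1.26 to 5.12 CPM over the stages.

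Erythroid transcription factors were present without globin transcripts. Gata1, a factor of erythroid cells that Sertoli cells of the testis also express, averaged 50.0 CPM at 10.5 dpp and 85.3 CPM at D4, and was higher in culture by 0.86 (SE 0.21, edgeR adjusted p = 0.0136) at D4, 0.83 (SE 0.23, adjusted p = 0.0152) at D16 and 2.78 (SE 0.25, adjusted p = 1.6e-07) at D30 than in age-matched testis. Klf1, which switches on adult beta globin in red cells, rose in vivo from 0.764 CPM at 6.5 dpp to 9.86 CPM at 36.5 dpp (log2 change 4.42, SE 0.44, edgeR adjusted p = 5.0e-08) while the globins fell. Of the 6 listed factors 1 was higher and 0 lower at D4 against 10.5 dpp, where 8.1% of all genes were called. At D16 against 22.5 dpp 1 was higher and 0 lower, where 25.8% of all genes were called. At D30 against 36.5 dpp 1 was higher and 3 were lower, with a median log2 change of -1.44 beside -0.03 over all genes. In that comparison 67.4% of all genes were called. Zfpm1, the GATA1 partner, and Tal1 averaged 28.4 to 63.4 and 0.844 to 1.86 CPM over the stages.

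Among 11 red cell enzymes and late erythroid proteins, 10 had a row and 8 were tested. At D4 against 10.5 dpp 1 was higher and 1 lower, where 8.1% of all genes were called. The transferrin receptor Tfrc, which takes up iron in every dividing cell, was the higher one (log2 change 1.20, SE 0.23, edgeR adjusted p = 0.0026). Bpgm, Bnip3l and Fbxo7 averaged 41.0, 154 and 45.7 CPM at D4 and 49.3, 117 and 50.9 CPM at 10.5 dpp.

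Genes that clear hemoglobin and heme gave calls only towards higher levels when culture was set against age-matched testis. Of 10 listed genes, 1 was higher and 0 lower at D4 against 10.5 dpp, where 8.1% of all genes were called. At D16 against 22.5 dpp 3 were higher and 0 lower, where 25.8% of all genes were called. At D30 against 36.5 dpp 8 were higher and 0 lower, where 32.4% of all genes were higher. The heme-degrading enzyme Hmox1 was higher by 1.25 (SE 0.17, edgeR adjusted p = 6.4e-06) and the ferritin heavy chain Fth1 by 1.02 (SE 0.28, edgeR adjusted p = 0.0041) at D30. The gene that was higher at D4 was Hp, named because it was called; it encodes haptoglobin, the plasma protein that binds free hemoglobin (log2 change 2.86, SE 0.40, edgeR adjusted p = 1.4e-04). At D4, when the globins were already near 0, Hmox1 was at 0.32 (SE 0.15, adjusted p = 0.229) against 10.5 dpp and did not pass. Lrp1, a receptor for heme bound to hemopexin, and the iron exporter Slc40a1 averaged 49.9 to 507 and 7.18 to 48.7 CPM over the stages.

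Vessel markers did not disappear with the globins. The 10 endothelial markers summed to 323 to 384 CPM at 10.5 dpp and 322 to 406 CPM at D4, ranges that nearly coincide, with 3 of 10 higher (Pecam1, Kdr and Tie1) and 2 lower (Eng and Tek). At D16 they summed to 319 to 462 CPM beside 94.9 to 141 CPM at 22.5 dpp (8 higher, 0 lower). At D30 they summed to 222 to 298 CPM beside 41.6 to 49.6 CPM at 36.5 dpp (8 higher, with Tek the 1 lower). Of all genes, 8.1% were called at D4, 25.8% at D16 and 67.4% at D30 in these comparisons, and 32.4% were higher at D30. Tie1 and Tek, angiopoietin receptors, are named because they were called. Pecam1 and Cdh5, both junction proteins of endothelium, averaged 52.7 and 95.3 CPM at D4 beside 31.0 and 111 CPM at 10.5 dpp, and Kdr, a receptor for vascular growth factor, 79.2 beside 35.0 CPM. Eng, a co-receptor of proliferating endothelium, was lower at D4, with a log2 change of -1.37 (SE 0.27, edgeR adjusted p = 0.0030).

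In vivo the vessel markers were lower at the ages at which the globin levels were lower. From 10.5 to 22.5 dpp 9 of 10 endothelial markers were called lower and 0 higher, where 27.9% of all genes were lower. Their part in the in vivo fall of globins was not tested.

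Markers of other blood cells gave smaller and less even changes. Of the platelet markers 3 were tested, and Pf4, a platelet granule chemokine also made by macrophages, averaged 8.46 CPM at 10.5 dpp and 0.605 CPM at D4 (log2 change -3.71, SE 0.54, edgeR adjusted p = 2.2e-04). The other platelet genes Itga2b and Gp1ba averaged 2.56 and 2.12 CPM at 10.5 dpp and 2.30 and 2.42 CPM at D4, while Gp1bb was below 0.14 CPM at every stage. Neutrophil markers summed to 0.0257 to 3.01 CPM over all libraries and lymphocyte markers to 0.393 to 3.21 CPM. S100a8 and S100a9, abundant in circulating neutrophils, averaged 0.468 and 0.719 CPM at 10.5 dpp and 0.346 and 0.297 CPM at D4.

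Markers of macrophages, which engulf old red cells, fell and later rose in culture. At D4 5 of 7 markers (Csf1r, Mrc1, C1qa and, named because they were called, Adgre1 and Cx3cr1) were lower and 0 higher than at 10.5 dpp, their summed level running from 63.0 to 89.1 CPM beside 159 to 214 CPM. From D4 to D30 all 7 rose, to 436 to 837 CPM, and Lyz2, the macrophage lysozyme, rose by 3.46 (SE 0.44, edgeR adjusted p = 5.7e-06). Of all genes, 3.18% were lower at D4 than at 10.5 dpp, and 45.6% were called in either direction from D4 to D30. Csf1r, Mrc1 and C1qa averaged 4.02, 17.5 and 4.04 CPM at D4 and 38.1, 72.2 and 42.0 CPM at D30. The globins stayed near 0 over that time, so their level did not return with the macrophage markers.

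**Figure D4:**
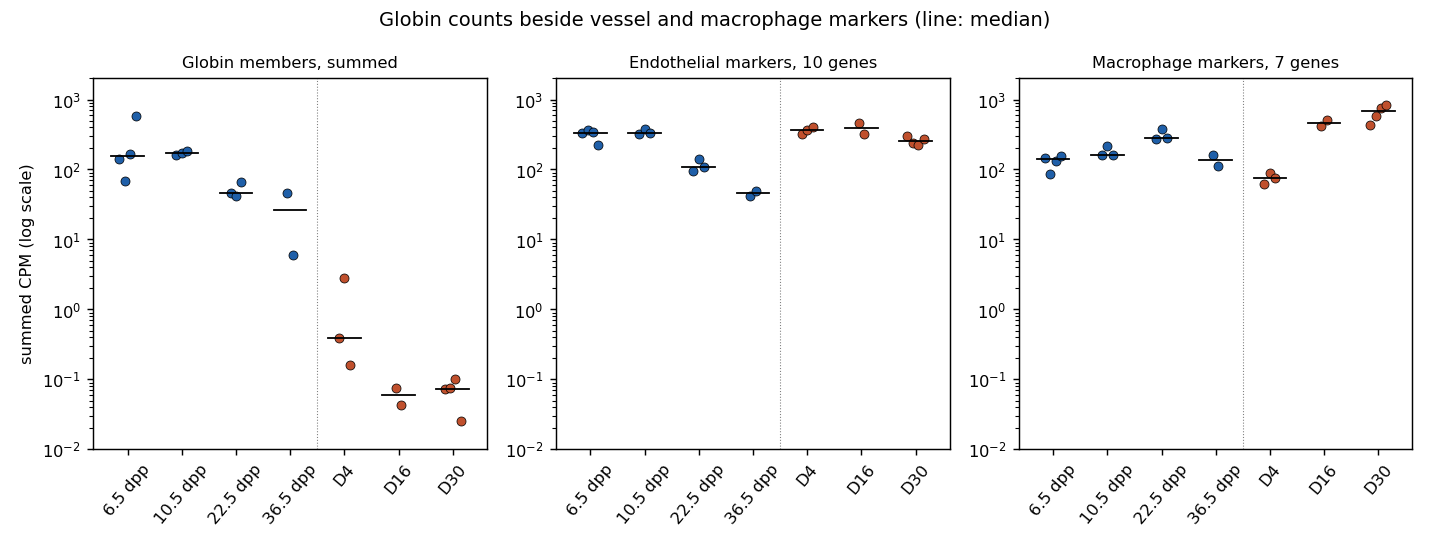
Summed CPM on a log scale in each library for the globin members, 10 endothelial markers and 7 macrophage markers, by stage, with the median as a line; in vivo is blue and in vitro orange. The globin sum drops from 161 to 184 CPM at 10.5 dpp to 0.159 to 2.83 CPM at D4, while the endothelial sum stays at 322 to 406 CPM.

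The genes whose course was most like that of the summed globins were found by Pearson r of log2(CPM + 0.1) over the 21 libraries. The 10 closest were Syt15 (r = 0.963), Ces2e, Rergl, Aplnr, Miox, Bpifb4, Tnfrsf19, Bmx, Ccl24 and Ass1 (r = 0.902), given as a description, since the libraries share stage. Aplnr, the apelin receptor of endothelium, averaged 10.8 CPM at 10.5 dpp, 0.549 CPM at D4 and 0.0249 CPM at D30. Syt15 averaged 2.68, 0.291 and 0.0744 CPM at these stages. All 10 stood lower at D30 than at 6.5 dpp, which follows from their choice by likeness to the globins and is no separate result.

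For Alas2 the closest were Il17rb (r = 0.913), Asgr1, Cdk15, Ccl4, Cd14, Ccl5, Agt, Pyy, Serpina3c and Cd72 (r = 0.872). Among them were chemokine and monocyte genes: Cd14, the co-receptor for bacterial lipopolysaccharide on monocytes, averaged 1.03 CPM at 6.5 dpp, 4.33 CPM at D4 and 34.3 CPM at D30. Asgr1, a receptor that takes up glycoproteins, averaged 0.540, 0.951 and 5.15 CPM at these stages. None of the 10 was another listed gene of heme synthesis. Globins could not appear among them, since the members were left out of this ranking and the embryonic and minor globins were not tested.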

How the data were processed

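RNA of testicular tissue was sequenced as single 50-base reads from stranded polyA libraries. The authors aligned reads with STAR 2.7.3a to GRCm38 and deposited raw counts per NCBI gene identifier from HTSeq 0.12.4; the strand setting and the treatment of reads with several alignments are not given in the sources used here. Identifiers were matched to RefSeq symbols for 27373 of 27466 genes, and the unmatched rows held 0.0207% of counts. All 23 columns matched a sample label, of which 21 libraries were used.

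CPM is the count over the library total. Genes passing filterByExpr were tested in R 4.3.3 by edgeR 4.0.16 (TMM factors, quasi-likelihood test, Benjamini-Hochberg over all genes) in 1 fit of 7 stages, with CSF and FT grouped by stage as in the study, and in 9 groups for freezing. Pooled ratios carry exact 95% intervals, which cover counting error only. All 15 comparisons were also run with RLE factors, library size alone, no filter, DESeq2 1.42.0, a replicate block, fresh tissue alone, the compared groups alone, 6.5 dpp FT replicate 1 included, the study's thresholds (a log2 change of 2 or more in either direction with an adjusted p no higher than 0.001), and each library left out; the code was tested on simulated data. Apex2 was added after the data were seen.

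The members and the 13 gene lists were chosen with earlier results of these data known. Named genes are the members, the 4 genes of each list with the highest mean CPM, list genes at 0 everywhere, and the 10 genes most like the globin sum and Alas2. Exceptions are marked, and some genes that the rule names are not reported here. Promoters come from RefSeq on GRCm38.p6 (5 of 6 members matched), and transcript windows from GENCODE on GRCm38.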

Additional observations from a re-analysis of the deposited data

Results flagged for a closer look

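In the groups of 4 libraries, 11 sets of levels, of single members or of the summed globins, were examined for a library far from the rest. Chance flags about 1 in 20 such sets if values are normally distributed. That rate does not hold for sets of a few counts, where 1 count can set a library apart. At 6.5 dpp, CSF replicate 3 stood apart for Hbb-bt at 64.8 CPM, where the other 3 libraries lay between 11.4 and 12.8 CPM; it was also the highest for Hba-a1, Hbb-b1 and Alas2 and the library with the lowest total. CSF replicate 2 stood apart for Hba-a2 at 0.0243 CPM, which is 1 count where the others had 0. At D30, FT replicate 3 stood apart for Hbb-b1 at 0.0756 CPM and for Hbb-bt at 0.0252 CPM, which are 3 counts and 1 count.

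Alas2 stood at 16.7 CPM in the library labelled 6.5 dpp FT replicate 1, which entered no comparison, above the 9.35 CPM that was the highest of the 4 other 6.5 dpp libraries and within the 16.2 to 17.5 CPM of D4. That library held 0 counts of Hba-a1 and Hbb-bt and 2 of Hbb-b1.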

How the results depend on the processing

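The globin falls of culture against in vivo tissue kept their direction in all 176 alternative values and their call in 175, the exception being Hbb-b1 at D4 against 10.5 dpp (edgeR adjusted p = 0.0504 with 6.5 dpp FT replicate 1). Of 888 alternative member changes, 797 kept direction and side of the threshold, 33 lost a call, 17 gained one and 41 changed sign or went to 0; 0 of those 41 were called in the main fit. Levels were also recomputed with TMM scaling and, apart from that, with globin counts taken out of the library total. Of the 84 values from these settings together, 7 moved by over 1 SD. DESeq2 gave Hbb-bt no adjusted p in the time course, so its counts cover fewer members. Depth limits the culture levels: most single libraries held at most 3 globin counts of a row.

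Counts of called members differed from those given above as follows; the cause was not tested. For 22.5 against 10.5 dpp (0 of 4), library size alone gave 2, fresh tissue 1, the compared groups alone 3 and the replicate block 1. For 36.5 against 22.5 dpp (2), RLE, DESeq2, the replicate block and inclusion of 6.5 dpp FT replicate 1 gave 1, the study's thresholds 0, library size alone and fresh tissue 3, and leaving out 1 library 1 to 2. For 36.5 against 6.5 dpp (4), DESeq2 and the study's thresholds gave 2, inclusion of 6.5 dpp FT replicate 1 gave 1, RLE, the replicate block, fresh tissue and the compared groups alone 3, and leaving out 1 library 3 to 4. For D4 against 6.5 dpp (4), DESeq2, the study's thresholds, fresh tissue and inclusion of that library gave 3. For D4 against 10.5 dpp (3), DESeq2 and inclusion of that library gave 2, and fresh tissue and the compared groups alone 4. For D16 against 22.5 dpp (3) DESeq2 gave 2, and for D30 against 36.5 dpp (3) DESeq2 gave 2 and library size alone 4. For D16 against D4 (0), DESeq2 gave 1 and leaving out 1 library 0 to 1. For D30 against D16 (1), the compared groups alone, the study's thresholds and inclusion of that library gave 0, and leaving out 1 library 0 to 1. For D30 against D4 (2), the study's thresholds gave 0, the compared groups alone and inclusion of that library 1, DESeq2 3, and leaving out 1 library 1 to 3.

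Replicate numbers did not pair the libraries: of 52 same-numbered pairs, correlations of deviations ran from -0.575 to 0.661, with 15 over 0.1 and 11 under -0.1.

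Changes of sign, all uncalled, were as follows on the log2 scale. Hba-a1 at 10.5 against 6.5 dpp was -0.027 with DESeq2 and -0.027 with RLE; Hbb-b1 and Hbb-bt were 0.21 and 0.80 with fresh tissue, and Hbb-bt 0.016 with the replicate block and 0.024 with 6.5 dpp FT replicate 1. Hbb-b1 at 36.5 against 22.5 dpp was 0.16 with DESeq2, 0.16 with RLE, 0.038 with the compared groups alone and 0.24 with the replicate block. With the replicate block, Hba-a1 and Hbb-b1 at D30 against D16 were -0.00214 and -0.14. The Alas2 term of D30 minus D4 was 0.38 with library size alone.

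Leaving out 1 library at a time gave these ranges where a sign changed or a value went to 0. At 10.5 against 6.5 dpp they were -0.18 to 0.63 for Hba-a1, -1.14 to 0.32 for Hbb-b1 and -0.56 to 0.86 for Hbb-bt. For CSF against FT at 6.5 dpp they were -0.61 to 0.60 for Hba-a1, -0.18 to 1.72 for Hbb-b1, -0.087 to 1.73 for Hbb-bt and -0.52 to 0.075 for Alas2. At 36.5 against 22.5 dpp Hbb-b1 ran from -2.53 to 0.83. Alas2 ran from -0.038 to 0.97 at D16 against 22.5 dpp and from -0.47 to 0.53 at D16 against D4. Hba-a1 ran from -2.99 to 0.35 at D16 against D4, -0.42 to 0.50 at D30 against D16 and -2.88 to 0.46 at D30 against D4; its positive values against D4 came without D4 replicate 2. Hbb-b1 at D30 against D16 ran from -0.41 to 0.74. Hbb-bt ran from 0 to 1.94 there and from -2.40 to 0 for CSF against FT at D30, the 0 being without D30 FT replicate 3, when no count was left in either group. The terms of D16 minus D4 ran from -1.73 to 1.61 for Hba-a1 and -0.85 to 0.16 for Alas2, and that of D30 minus D4 from -0.81 to 3.06 for Hbb-bt.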
